A study of Mus musculus with 8 samples.

Results

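Committed oligodendrocyte precursors (COPs) are cells that have left the oligodendrocyte precursor state and have not yet made a myelin sheath. Here they were chosen by transcript counts in single cells. A barcode with at least 400 unique molecular identifiers (UMIs, each 1 counted transcript molecule) was a COP when 3 conditions held. The 5 markers Gpr17, Bmp4, Neu4, Tnr and Lims2 summed to at least 3 UMIs. Gpr17 and Bmp4 together had at least 1 UMI and more UMIs than the precursor genes Pdgfra, Matn4 and C1ql1 together. The myelin genes Mog, Mal and Mag together had at most 5 UMIs. The rule found 54 COPs among 9100 cells of that depth (0.593%). Of these 54 cells, 36 came from 1 library, that of mice aged 2 weeks, and 18 from 5 others.

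Oligodendrocyte precursors (OPCs) divide, respond to platelet-derived growth factor through Pdgfra and carry the proteoglycan Cspg4 (NG2). As they commit to differentiation they lose these proteins and pass through a stage marked by Gpr17, a G protein-coupled receptor known as a brake on maturation. They then become newly formed oligodendrocytes that extend processes, and later cells that express the full set of myelin proteins. The subventricular zone (SVZ), the stem cell niche along the lateral ventricle, lies beside the corpus callosum and holds cells of this lineage next to its neural stem cells.

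The study measured SVZ cells by Drop-seq, a droplet method that reads the ends of transcripts with a cell barcode and a UMI. All mice were C57BL/6 and carried a transgene called CGD. It places CreERT2 (a Cre recombinase that tamoxifen turns on), H2B-eGFP (a histone fused to GFP, so that nuclei glow green) and a receptor for diphtheria toxin, linked through P2A peptides, under the control of Nestin sequences. In the sort experiment, at 2 months, cells were gated as GFP low, GFP high, GFP negative or unsorted viable. The age series used viable cells of mice aged 2 weeks, then 2, 6 and 12 months. Each gate or age was 1 library (8 in all, 750672 to 2633834 UMIs each), so nothing between gates or ages was tested. How many animals were pooled in a library, and their sex, is not stated in the labels. The 2 weeks library held 0 Xist UMIs and 417 UMIs of 4 Y-linked genes, and the 2 months library 923 and 0, so age and sex cannot be told apart. No cell barcode was shared between libraries.

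The label was checked against genes that the rule did not use. Of the 54 COPs, 37 had a UMI of Olig1, 31 of Olig2 and 25 of Sox10, the transcription factors that define the lineage, and 31 had Mbp, myelin basic protein. Among 805 microglia, which should lack these genes, the shares were 1.49% for Olig1, 0.497% for Olig2 and 0.745% for Sox10, but 19.1% for Mbp (median 798 UMIs per microglial cell against 1732.5 per COP). Gpr17 had a UMI in 0.248% of microglia. Markers of other cells were present to unequal degrees. The 14 astrocyte and stem cell markers summed to 164 UMIs over all COPs, 39 of them in the 5 cells of the GFP low library, with Thbs4 and Aldh1l1 at 0. Of 12 microglial markers, 3 were at 0 and the sum was 24 UMIs. Of 10 endothelial markers, 7 were at 0, Cldn5, Flt1 and Pecam1 among them, and the sum was 13 UMIs. Pericyte markers summed to 5 UMIs with 5 of 8 at 0, and ependymal markers to 1 UMI with 7 of 8 at 0. The 12 neuroblast markers summed to 25 UMIs. Dlx1, Dlx2, Dlx5 and Sp9 were at 0, so these UMIs came from others of the list. Mature neuron markers summed to 21 UMIs with 2 of 10 at 0. None of the 54 was among the 129 barcodes that a doublet caller marked (1.42% of all cells).

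The genes that chose the COPs are given as a description. Gpr17 had at least 1 UMI in 51 COPs, with a median of 4 and a highest count of 13. Tnr, which encodes the matrix protein tenascin R, had a UMI in 50, and Bmp4, a secreted ligand, in 44. Neu4, a sialidase, was found in 35 and Lims2 in 33. The markers were not equally frequent in each library: Bmp4 was detected in 1 of 5 COPs of the GFP low library and in 33 of 36 at 2 weeks. The GFP low COPs were also the shallowest, with a median of 618 UMIs against 2016.5 at 2 weeks. Of the genes that the rule kept low, Pdgfra was detected in 2 COPs, Matn4 in 29 and C1ql1 in 19, while Mag was detected in 19 and Mog and Mal in 2 each.

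Some cells lay at the edges of the rule, and stricter settings changed the count. The 36 COPs at 2 weeks became 31 with a marker sum of at least 5. They also became 31 with at most 2 UMIs of Mog, Mal and Mag. Marker sums of exactly 3 were found in 2 COPs, and 5 cells with a sum of 2 met every other condition. In 6 COPs Gpr17 and Bmp4 exceeded the precursor genes by 1 UMI, and 7 cells were left out because the sums were equal. In 5 COPs Mog, Mal and Mag reached 4 or 5 UMIs, and 3 cells with 6 or 7 were left out.

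COPs were most frequent at 2 weeks. They made up 3.89% of cells there (36 of 925, exact 95% binomial interval 2.74–5.35%). The other libraries of the age series held 2 of 989 cells at 2 months (0.202%, 0.0245–0.729%), 2 of 1154 at 6 months (0.173%, 0.0210–0.625%) and 0 of 521 at 12 months, which allows a share of up to 0.576% (3 cells). In the sort experiment the shares were 0.660% of GFP negative cells (7 of 1060, 0.266–1.36%), 0.293% of GFP low cells (5 of 1708, 0.0951–0.682%) and 0.142% of unsorted viable cells (2 of 1411, 0.0172–0.511%). No COP was found among 1332 GFP high cells, which allows up to 0.225% (3 cells), or 0.277% as the upper end of the exact interval. The interval at 2 weeks lay above all the others at this depth. That did not hold against the GFP negative library in deeper cells. With at least 1000 UMIs per cell its share was 1.90% (5 of 263, 0.620–4.38%) against 4.44% at 2 weeks (26 of 586, 2.92–6.43%). With cells thinned to 800 UMIs the shares were 1.63% (0.657–3.33%) and 2.98% (1.85–4.52%). These intervals cover counting error only.

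The share at 2 weeks was 19.2 times that at 2 months and 27.5 times that of the unsorted viable library, which had the same age and gate as the 2 months library. OPCs were also most frequent at 2 weeks. An OPC was a cell with at least 3 UMIs of Pdgfra, Matn4 and C1ql1 that was not a COP and had at most 5 UMIs of Mog, Mal and Mag, which gave 109 cells. Their share at 2 weeks, 7.68% (71 of 925 cells), was 38 times that at 2 months (2 OPCs). It was 27.1 times that of the unsorted viable library (4 OPCs) and 14.8 times that at 6 months (6 OPCs). The 2 months share over that of the unsorted viable library was 1.43 for COPs and 0.713 for OPCs. Oligodendrocytes, defined by at least 6 UMIs of Mog, Mal and Mag, were 1.84% of cells at 2 weeks and 26.6% at 2 months.

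Set against COPs and OPCs together, COPs showed no such peak. They were 33.6% of these precursors at 2 weeks (36 of 107, 24.8–43.4%), 50% in the GFP negative library (7 of 14, 23.0–77.0%) and 29.4% in the GFP low library (5 of 17, 10.3–56.0%). The unsorted viable library held 2 COPs among 6 precursors, the 2 months library 2 of 4 and the 6 months library 2 of 8. No COP was among the 4 precursors of the GFP high library or the 3 at 12 months. All 8 intervals overlapped, and outside 2 weeks they were too wide to tell a share of 25.0% from one of 50%.

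**Figure D1:**
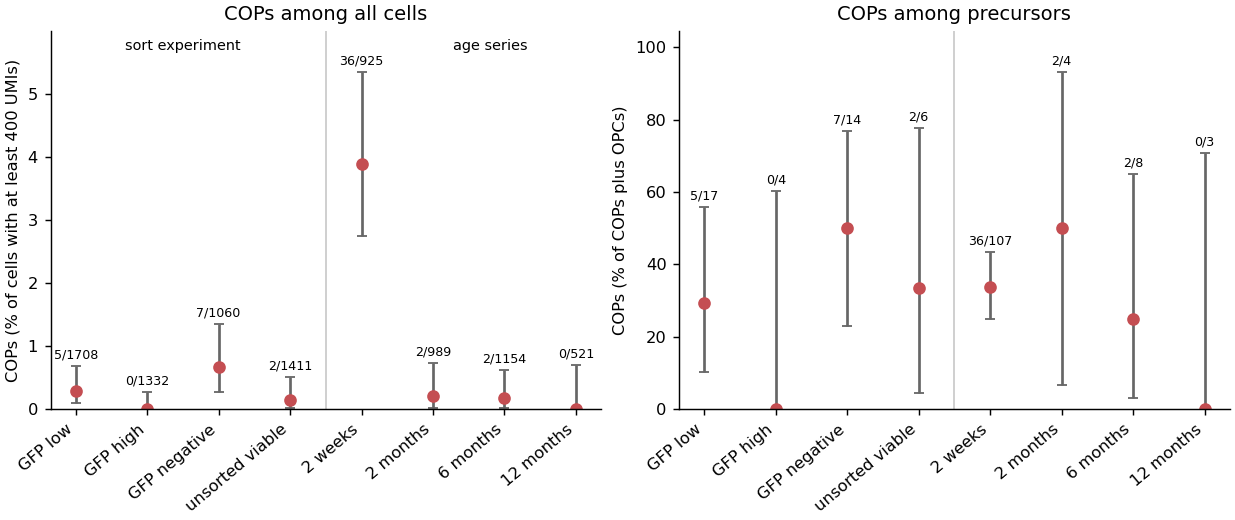
COPs in each of the 8 libraries as a percentage of cells with at least 400 UMIs (left) and of COPs plus OPCs (right). Points are shares, bars exact 95% binomial intervals and labels the cells counted. The 2 weeks library stands at 3.89% on the left and all others at or below 0.660%, while on the right the intervals overlap.

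The COPs differed widely in their myelin transcripts. At 2 weeks, Mbp ranged from no UMI in some cells to 44 in 1 cell and was detected in 18 of 36 COPs, with a median of 0.5. To describe this range, the 36 cells were ordered by the share of their UMIs from 24 myelin genes and divided into groups of 18. Levels are given as counts per 1000000 UMIs of the cells summed (CPM). The lower group spanned 0 to 7634 CPM of myelin genes and the upper 8201 to 56663, at like depth (median 1988.5 and 2024 UMIs per cell). Mbp itself belongs to that list, with 400.2 CPM in the lower group (233–641) and 4404 in the upper (3852–5013). In the lower group it stood above the 153 CPM (97.1–230) of microglia from the same library.

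Genes outside the myelin list ran with it or against it. Enpp6, a choline phosphodiesterase made by newly formed oligodendrocytes, was at 377 CPM in the lower group (exact Poisson 95% interval 215–612) and 1596 in the upper (1271–1979). Fyn, a kinase of process outgrowth, was at 1059 and 3173 CPM, and Sirt2, a deacetylase of the myelin sheath, at 1177 and 2942. Nfasc, an adhesion molecule of axon and glia contacts, was at 47.1 and 942 CPM. Bcas1, a marker of actively myelinating cells, was at 1695 CPM in the lower group and 2885 in the upper.

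The precursor phosphatase Ptprz1 went the other way, with 1106 CPM in the lower group and 558 in the upper, as did Olig1 with 871 and 365. Vcan, the proteoglycan versican, was at 1130 and 1115 CPM. Summed over their lists, precursor genes were at 10357 CPM in the lower group and 6115 in the upper, and newly formed oligodendrocyte genes at 6426 and 18384. Over the 36 cells the myelin share had a Spearman rho of 0.82 with the newly formed list, -0.49 with the precursor list and 0.18 with the cell's total UMIs. These are descriptions of cells from 1 library, in which all shares have the same total.

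The genes of the rule are given for the same groups as a description. Gpr17 was at 1365 CPM in the lower group (1037–1765) and 1596 in the upper (1271–1979). Tnr was at 1554 and 2000 CPM and Bmp4 at 989 and 1385. Neu4 was at 824 and 462 CPM. Lims2 was at 777 and 885 CPM. Of the genes that the rule capped, Mag was at 47.1 and 519 CPM and Matn4 at 329.5 and 673.

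**Figure D2:**
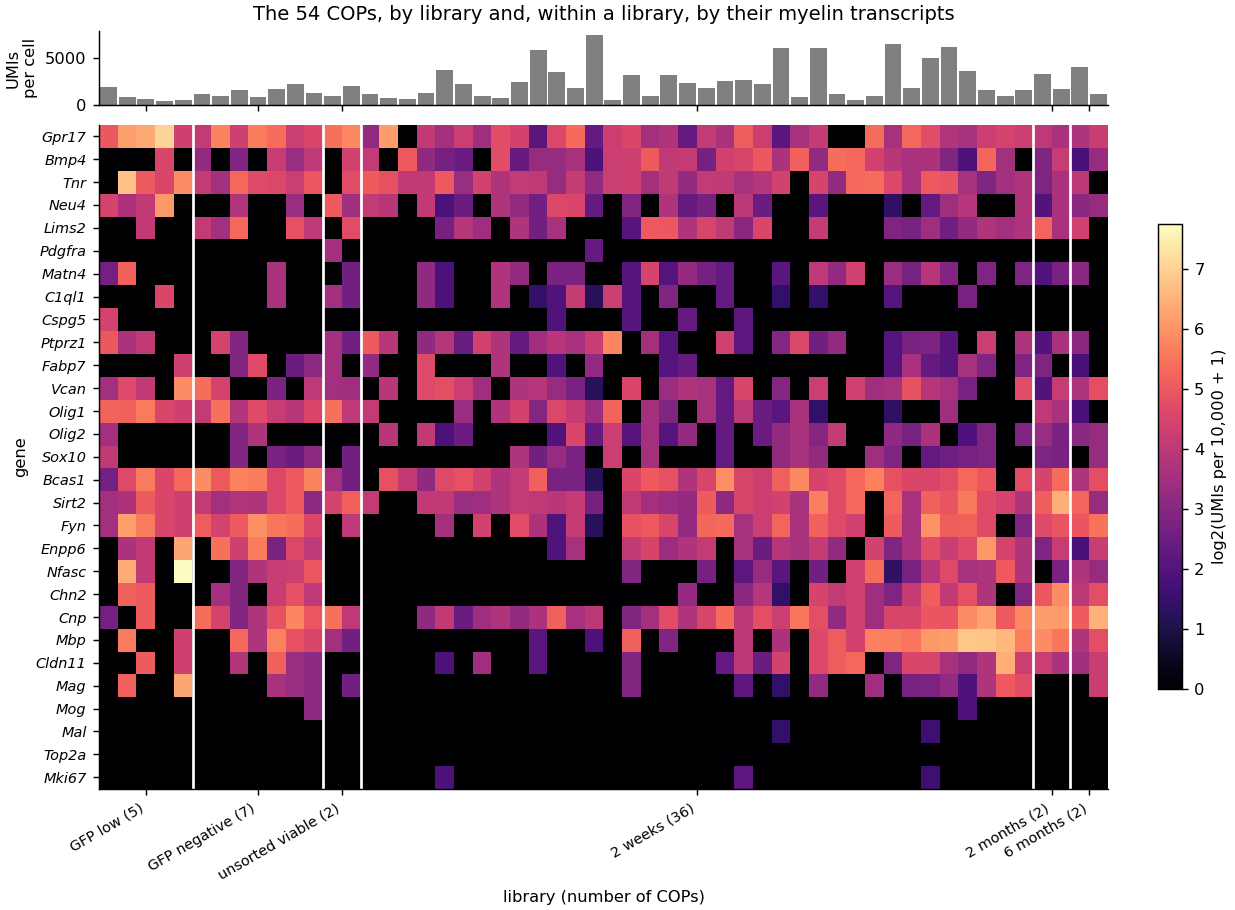
Each column is 1 of the 54 COPs, grouped by library and ordered within a library by its myelin transcripts, and each row is a gene. Colour gives log2(UMIs per 10000 + 1) and the bars above give UMIs per cell. Gpr17 and Bcas1 are present in 51 of 54 cells, Mbp is detected in 18 of the 36 cells at 2 weeks, and Top2a is empty throughout.

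COPs were then compared with OPCs of the same libraries, to ask what changes when a precursor commits. UMIs were summed per library and class, and the 3 libraries with at least 5 cells of each class were fitted (GFP low with 5 COPs and 12 OPCs, GFP negative with 7 and 7, 2 weeks with 36 and 71). A quasi-likelihood test in edgeR with library as a block gave adjusted p-values (Benjamini-Hochberg over all genes tested, threshold 0.05). The 11 genes of the class rules were left out, but genes that vary with them across cells were not, so the contrast is not independent of how the cells were chosen. Of 3274 genes with at least 20 UMIs, 20 were higher in COPs (0.611%) and 13 lower (0.397%), and 30 of these 33 differed in the same direction in all 3 libraries. The higher genes were mostly those of newly formed and myelinating oligodendrocytes, and the lower ones included proteoglycans and enzymes of the precursor state and cell cycle genes. The median log2 fold change over all tested genes was -0.08, with 45% positive.

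The counts depended on single libraries. Without the GFP low library 35 genes were higher and 22 lower, without the GFP negative library 7 and 5, and without the 2 weeks library 6 and 2 of only 226 genes tested. With library as a block, the p-values rest on how the difference between the classes varied over 3 libraries that differ in gate and age.

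Genes of newly formed oligodendrocytes made up 6 of the 20 higher genes. Of 21 listed genes found in the files 13 were tested, all 13 had a positive log2 fold change, and 6 passed the test, with a list median of 2.56. Enpp6 had 6, 19 and 99 UMIs in the COPs of the GFP low, GFP negative and 2 weeks libraries, against 0, 0 and 6 in the OPCs. Every COP sum was above its OPC sum although fewer or equal numbers of cells were summed, and the log2 fold change was 5.07 (SE 0.84, edgeR adjusted p = 1.15e-06). Fyn stood at 3002, 3697 and 2223 CPM in COPs and 55.7, 138 and 249 in OPCs, a log2 fold change of 3.75 (SE 0.61, edgeR adjusted p = 1.01e-06).

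The levels of Fyn in the 3 COP sums lay within a narrow range, well clear of the OPC sums. Nfasc was at 4388, 1335 and 540 CPM in COPs and 55.7, 138 and 72 in OPCs (log2 fold change 3.54, SE 0.71, edgeR adjusted p = 0.000253). The GFP low COPs held 19 UMIs of it, with 7 and 11 in single cells, and 16 of 36 COPs had a UMI at 2 weeks. Bcas1 was at 2079, 4108 and 2350 CPM in COPs and 223, 553 and 615 in OPCs (2.34, SE 0.55, edgeR adjusted p = 0.0042). Microglia of these 3 libraries held 0 UMIs of Bcas1. Sirt2 and Dynll2, a dynein light chain, also passed (log2 fold changes 2.53 and 2.56). Dynll2 had 0 UMIs in both classes of the GFP low library.

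The number of called genes in this list was 9, 3 and 3 when the GFP low, GFP negative or 2 weeks library was left out. Enpp6, Fyn and Nfasc kept their call each time. Bcas1 and Sirt2 did not pass without the GFP negative or the 2 weeks library, and Dynll2 did not pass without the GFP negative library. Itpr2, a calcium release channel of the endoplasmic reticulum and a marker of early differentiation, did not pass (log2 fold change 0.58, edgeR adjusted p = 0.998).

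Several myelin genes were already higher in COPs than in OPCs. Mbp had 5, 25 and 246 UMIs in COPs and 1, 0 and 24 in OPCs of the GFP low, GFP negative and 2 weeks libraries (log2 fold change 4.25, SE 0.70, edgeR adjusted p = 1.15e-06). Every COP sum was above its OPC sum. Microglia of the same libraries had Mbp at 575, 232 and 153 CPM, against 1155, 2567 and 2604 in COPs. Cldn11, the tight junction protein of the sheath, had 3, 11 and 86 UMIs against 0, 0 and 7 (4.54, SE 0.89, edgeR adjusted p = 0.000175). Cnp, a membrane-bound phosphodiesterase of the sheath, and the tubulin gene Tubb4a passed with log2 fold changes of 3.18 and 3.21. In all, 5 of 13 tested myelin genes were called higher and none lower, 12 were positive, and the list median was 2.45. Without the GFP low, GFP negative or 2 weeks library 8, 3 and 2 of them were called. Tubb4a and Cnp did not pass without the GFP negative library, and Cnp did not pass without the 2 weeks library.

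Other genes higher in COPs included regulators of cell shape. Chn2, a Rac GTPase activating protein, had a log2 fold change of 4.13 (edgeR adjusted p = 0.000253), with 0 UMIs in the OPCs of the GFP low and GFP negative libraries. Epb4.1l2, a linker of membrane and cytoskeleton, had 3.60 and Pdcd4, an inhibitor of translation, 3.32. Of 14 tested genes for the cytoskeleton and process growth, Map1b, a microtubule protein, and Tuba1a, an alpha tubulin, passed with log2 fold changes of 2.87 and 1.48. Neither passed without the GFP negative library, nor did Chn2, Epb4.1l2 or Pdcd4. The list held 8 positive members and a median of 0.34.

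Several precursor genes were lower. Cspg5, the transmembrane proteoglycan neuroglycan C, had 67, 24 and 164 UMIs in the OPCs of the GFP low, GFP negative and 2 weeks libraries and 4, 0 and 4 in the COPs. The COPs were lower in each library, and only 5 of the 54 COPs had a UMI of Cspg5. Its log2 fold change was -4.21 (SE 0.66, edgeR adjusted p = 3.29e-07), and it passed whichever of the 3 libraries was left out. Fabp7, a brain fatty acid binding protein, was at 1393, 1659 and 2205 CPM in OPCs and 231, 514 and 296 in COPs (-2.55, SE 0.62, edgeR adjusted p = 0.0068).

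Ptprz1 was at 3734, 5252 and 1767 CPM in OPCs and 1848, 308 and 804 in COPs (log2 fold change -1.99, SE 0.49, edgeR adjusted p = 0.009). Unlike Cspg5, Ptprz1 remained detectable in 37 of 54 COPs. Serpine2, a protease inhibitor, and Dbi, an acyl-CoA binding protein, also fell, by 2.42 and 1.85 on the log2 scale. In all, 5 of 23 tested precursor genes were lower and none higher, 21 were negative, and the list median was -1.83. Without the GFP low, GFP negative or 2 weeks library 7, 3 and 1 of them were called. Fabp7 and Dbi did not pass without the 2 weeks library, and Ptprz1 and Serpine2 did not pass without the GFP negative or the 2 weeks library.

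Outside the list, Cdo1 (cysteine dioxygenase) had 2, 0 and 0 UMIs in COPs and 18, 4 and 65 in OPCs (edgeR adjusted p = 0.0054). Ckb, a brain creatine kinase, was at 693, 513 and 593 CPM in COPs and 3065, 2073 and 1708 in OPCs (-1.94, SE 0.54, edgeR adjusted p = 0.0373). Phlda1 fell by 3.52 on the log2 scale. Cdo1 did not pass without the GFP negative or the 2 weeks library, and Ckb and Phlda1 lost their call whichever of the 3 libraries was left out.

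Other precursor genes did not pass the test. Vcan was at 1848, 1027 and 1122 CPM in COPs and 1170, 1106 and 1060 in OPCs (log2 fold change 0.02, SE 0.54, edgeR adjusted p = 0.998), and 40 of 54 COPs had a UMI of it. Cspg4 was at 462, 103 and 74.1 CPM in COPs and 1003, 1244 and 314 in OPCs, but did not pass (-2.26, SE 0.76, edgeR adjusted p = 0.15). Cacng4, an auxiliary subunit of AMPA receptors, narrowly missed the threshold (-1.97, edgeR adjusted p = 0.052).

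Of 16 tested lineage transcription factors none passed in either direction, and their median log2 fold change was -0.04. Sox10 was at 693, 411 and 392 CPM in COPs and 557, 553 and 340 in OPCs (log2 fold change -0.04, SE 0.68). Olig1 (-0.84, SE 0.47) and Olig2 (-1.35, SE 0.62) did not pass either. The effector of Wnt signalling Tcf7l2, a known marker of differentiating cells, had 0, 4 and 15 UMIs in COPs and 0, 0 and 5 in OPCs (2.45, SE 0.99, edgeR adjusted p = 0.34). Hes5, a target of Notch signalling that holds precursors back, had 1 UMI in COPs and 27 in OPCs at 2 weeks, a ratio of 16.7 with a counting interval of 2.75 to 683 (edgeR adjusted p = 0.18). Differences within these standard errors were not detectable for single factors.

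Signalling genes gave no call. All 4 tested Notch pathway genes were negative (Notch1, Hes1, Dll3 and Cntn1, median -1.83) and all 4 tested BMP and Wnt pathway genes positive (median 0.46). Of 7 tested glutamate and GABA receptor and channel genes 5 were negative (median -1.03). All 11 tested cholesterol synthesis genes were positive, with a median of 0.83 and no call. Their summed level was 2466 CPM in COPs and 1485 in OPCs at 2 weeks and 2875 and 415 in the GFP negative library. In the GFP low library it was 0 and 724 CPM, but the COPs there held only 4330 UMIs of all genes. That is too few to tell 0 from the level of the OPCs, so the direction in that library cannot be told. Mitochondrially encoded genes, a sign of RNA quality, were close between the classes (median 0.22, no call in 9).

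Jun, an immediate early gene that cell isolation is known to induce, was at 924, 0 and 138 CPM in COPs and 1282, 2626 and 569 in OPCs (log2 fold change -2.40, SE 0.66, edgeR adjusted p = 0.0317). It did not pass without the GFP negative or the 2 weeks library. The 14 immediate early genes together were at 4850, 308 and 1609 CPM in COPs and 2842, 8569 and 2931 in OPCs. Their direction differed between libraries. Their part in the other differences was not tested. Apoe, an apolipoprotein of astrocytes and microglia, had 9, 0 and 46 UMIs in COPs and 98, 25 and 166 in OPCs (-2.24, SE 0.52, edgeR adjusted p = 0.0041), and did not pass without the GFP negative library. The 14 astrocyte and stem cell markers were at 9007, 103 and 1238 CPM in COPs and 8805, 5805 and 2382 in OPCs. In the GFP low library COPs were thus not below OPCs. Whether RNA of astrocytes has a part in these values was not tested.

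**Figure D3:**
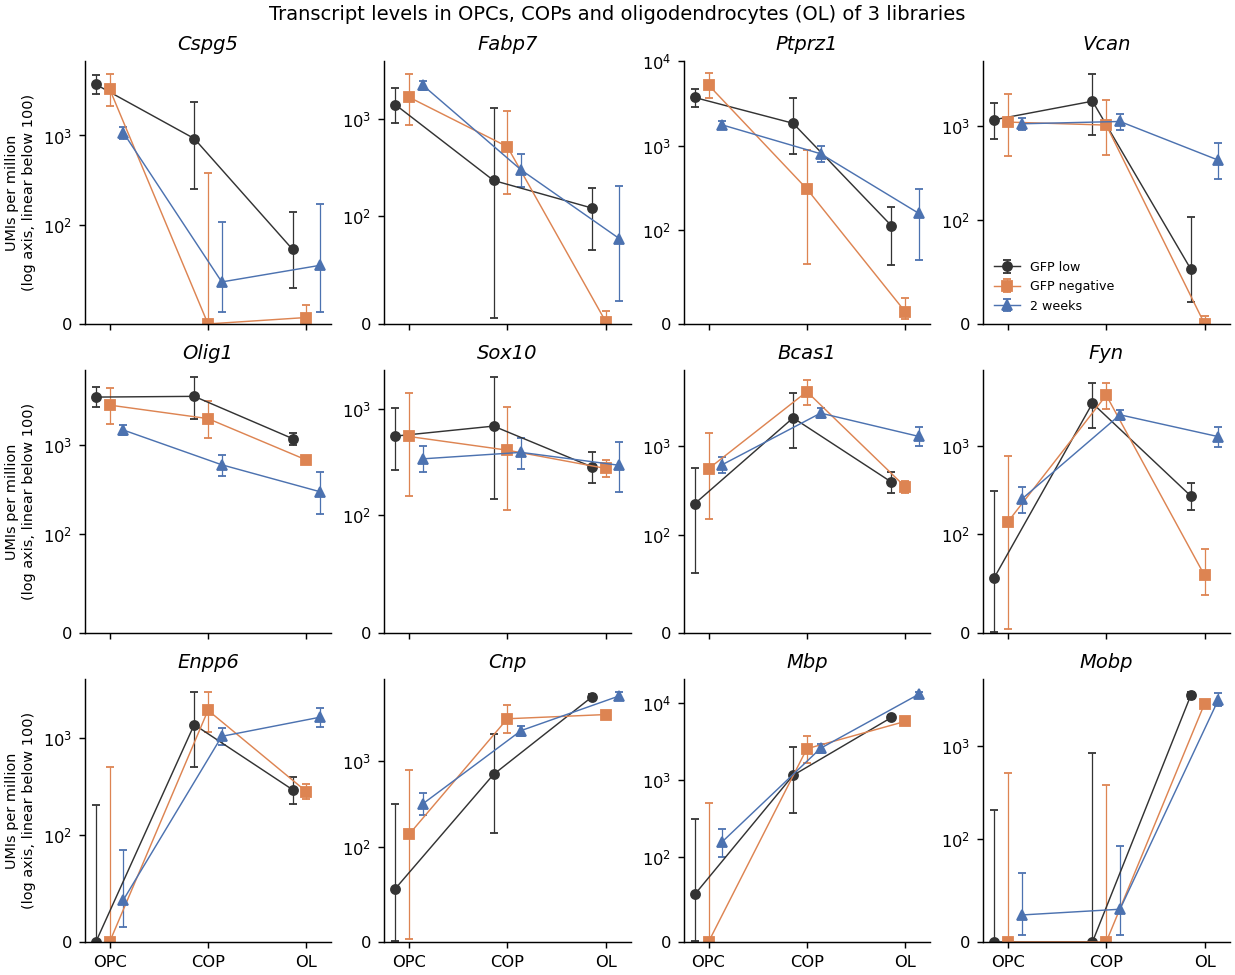
Levels (CPM) of 12 genes in OPCs, COPs and oligodendrocytes (OL) of the GFP low, GFP negative and 2 weeks libraries, on an axis that is logarithmic above 100 and linear below. Bars are exact 95% Poisson intervals. Cspg5 falls from OPC to COP in each library, Enpp6 rises from OPC to COP, Vcan is at a like level in both, and Mbp rises at each step at 2 weeks.

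Cell cycle transcripts were scarcer in COPs than in OPCs. Top2a, the topoisomerase of dividing cells, had no UMI in any of the 54 COPs, while OPCs of the GFP low, GFP negative and 2 weeks libraries had 16, 0 and 36 UMIs. At 2 weeks its level was at least 7.42-fold lower in COPs (with a floor of 3 UMIs for the COPs of that library). In the GFP low library the bound was 1.29-fold. The edgeR adjusted p was 0.0068. Mki67 had 3 UMIs in 3 COPs against 36 in the OPCs of these libraries (edgeR adjusted p = 0.36). Of 22 listed genes of the G2 and M phases 7 had enough UMIs to be tested. All 7 were negative and only Top2a was called. Their median was -3.46, or -2.75 with the genes at 0 in COPs set at their highest bound over the libraries. Of the 7, 3 had no UMI in COPs, so they entered the test through OPCs alone and could only be negative. Top2a did not pass with at least 1000 UMIs per cell (edgeR adjusted p = 0.18) and was given no adjusted p by DESeq2, which called none of the 7. Without the 2 weeks library no gene of this list had enough UMIs to be tested. The 3 tested S phase genes were negative with no call. Ccnd1, the cyclin of the G1 phase, had 26, 11 and 111 UMIs in OPCs and 1, 0 and 5 in COPs (log2 fold change -3.95, SE 0.80, edgeR adjusted p = 0.000301). It did not pass without the 2 weeks library.

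Cells with 2 or more UMIs from the S, G2 and M phase lists together were counted at a common depth of 800 UMIs per cell, as the expected number of cells over all ways of drawing 800 UMIs. They were 6.85% of COPs (3.15 of 46 cells, 8 shallower cells left out, 95% interval 1.51–18.3%) and 28.8% of OPCs (28.5 of 99, 10 left out, 20.1–38.8%). The intervals come from the binomial formula with expected numbers of cells and are approximate. Oligodendrocytes, which do not divide, gave 8.05% (1096 cells, 488 left out, 6.51–9.82%), and microglia 12.0%. The COP share lay at the level of oligodendrocytes, which serves as background, and its interval did not reach that of OPCs. Without thinning the shares were 29.6% of COPs, 43.1% of OPCs and 16.2% of oligodendrocytes, at median depths of 1732.5, 1780 and 1043 UMIs. At 2 weeks alone they were 8.78% of COPs (1.65–24.6%) and 30.7% of OPCs (20.1–43.0%) at 800 UMIs, with overlapping intervals. In all other libraries together they were 2.85% of 15 COPs and 24.7% of 31 OPCs.

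The reporter of the CGD transgene is listed as its own gene, CGD1. It had 1 UMI in the 54 COPs, in a cell of the GFP low library (8.23 CPM over all COPs, exact Poisson interval 0.208–45.8). At 2 weeks it had 0 UMIs among 94485 in 36 COPs, which allows up to 39.0 CPM, and 14 UMIs in 12 of 71 OPCs (91.6 CPM, 50.1–154). The intervals of COPs and OPCs at 2 weeks did not overlap, whereas that of microglia (46.6 CPM, 18.7–96.0) overlapped both. In the edgeR fit of COPs against OPCs CGD1 did not pass (log2 fold change -3.18, SE 1.34, adjusted p = 0.40). In the GFP low library the OPCs had 7 UMIs in 4 of 12 cells (390 CPM, 157–804). The 5 COPs there, with 1 UMI, stood at 231 CPM (5.85–1287), and the 2 intervals overlapped. Over all cells at 2 weeks CGD1 stood at 269.7 CPM.

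**Figure D4:**
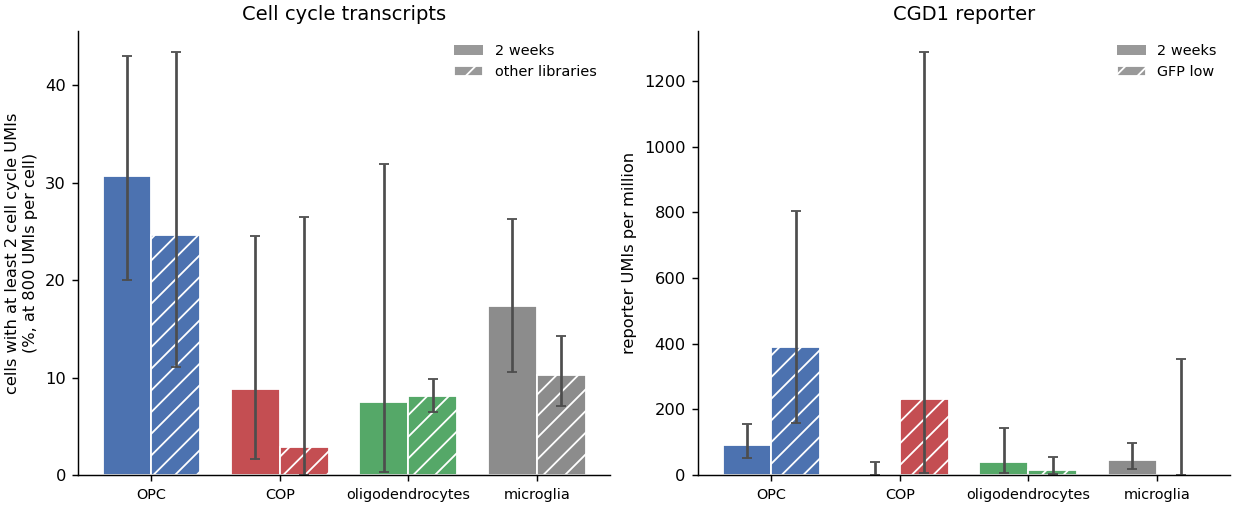
Left, share of cells (%) holding 2 or more UMIs of cell cycle genes, after thinning to 800, in OPCs, COPs, oligodendrocytes and microglia, for the 2 weeks library (plain) and the other libraries together (hatched). Bars are 95% intervals from the binomial formula with expected numbers of cells. Right, CGD1 level (CPM) with exact 95% Poisson intervals at 2 weeks (plain) and in the GFP low library (hatched). At 2 weeks COPs stand at 8.78% on the left against 30.7% for OPCs, and at 0 on the right.

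The second comparison set COPs against oligodendrocytes of the same 3 libraries (75, 462 and 17 cells), to ask what separates a committed cell from a myelinating one. It uses the same COP sums as the first, so the 2 comparisons are not independent. COPs had at most 5 UMIs of Mog, Mal and Mag and oligodendrocytes at least 6. Genes that vary with these were kept in the test, so this contrast too is not independent of how the cells were chosen. Of 5893 genes tested in edgeR, 5 were higher in COPs (0.0848%) and 61 lower (1.04%), 63 of the 66 in the same direction in all 3 libraries. The lower genes were led by late myelin genes, and the higher ones included versican and the cell cycle regulator Rgcc. The median over all tested genes was -0.53 in log2, with 29.6% positive. With scaling to total UMIs in place of TMM (edgeR's trimmed mean scaling) all log2 fold changes rose by 0.66 at the median, and 45 genes were higher and 65 lower, so that 40.9% of calls were higher in place of 7.58%. Without the GFP negative library 0 genes were higher and 16 lower, with 159 of 3021 genes at an unadjusted p under 0.05, and without the 2 weeks library 2 were higher and 46 lower.

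Myelin genes formed a graded series, in the direction that the choice of cells by Mog, Mal and Mag favours. All 24 listed myelin genes were tested and negative, and 16 were called lower. Their median was -3.92, or -3.22 with genes at 0 in COPs set at their highest bound over the libraries. Of the 24 listed genes, 6 had no UMI in COPs. These entered the test through oligodendrocytes alone and could only be negative. Between 11 and 17 of the 24 were called when 1 library was left out. Without TMM 1 of the 24 was positive and 16 were called lower. Mbp was at 1155, 2567 and 2604 CPM in COPs and 6561, 5831 and 13220 in oligodendrocytes of the GFP low, GFP negative and 2 weeks libraries (log2 fold change -2.82, SE 0.76, edgeR adjusted p = 0.0254). Every COP level was below that of the oligodendrocytes, but Mbp did not pass without the GFP low library.

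Cnp, Tubb4a, Ugt8a (an enzyme of galactolipid synthesis) and Fa2h (a fatty acid hydroxylase) did not pass, with log2 fold changes of -2.13, -1.97, -2.44 and -2.42. The late genes were nearly or wholly undetected in COPs. Mobp, a protein of compact myelin, had 0, 0 and 3 UMIs in COPs and 471, 1335 and 161 in oligodendrocytes (edgeR adjusted p = 1.27e-07). At 2 weeks oligodendrocytes held 99.9 times as much Mobp as COPs, with a counting interval of 33.6 to 490. Trf, transferrin, had 0, 0 and 2 UMIs in COPs and 373, 1825 and 97 in oligodendrocytes, a ratio of 90.3 at 2 weeks (24.3 to 756). Car2, a carbonic anhydrase, had 0, 0 and 1 UMI in COPs and 471, 2558 and 13 in oligodendrocytes (edgeR adjusted p = 2.35e-06). Mobp, Trf and Car2 passed whichever of the 3 libraries was left out.

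Some late genes had no UMI in the COPs of any of the 3 libraries, so only bounds can be given, with a floor of 3 UMIs per library. Ermn, a cytoskeletal protein of late oligodendrocytes, was at least 16.1-fold lower in COPs at 2 weeks (26 UMIs in oligodendrocytes there, edgeR adjusted p = 1.46e-07). Opalin, a membrane protein of mature cells, was at least 4.34-fold lower at 2 weeks. Gjb1, a gap junction protein, was at least 11.2-fold lower at 2 weeks. Ptgds, prostaglandin D synthase, was at least 20.7-fold lower in the GFP negative library. Ptgds had 1631, 2951 and 2 UMIs in the oligodendrocytes, so at 2 weeks neither class showed it above the floor.

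Ermn and Opalin passed whichever library was left out, while Gjb1 did not pass without the GFP negative or the 2 weeks library. Sepp1 (a selenium carrier) and Anln (a scaffold protein of the septin cytoskeleton) were at least 12.4-fold and 8.07-fold lower in COPs at 2 weeks, and Grb14 at least 4.34-fold. The oligodendrocytes there held 20, 13 and 7 UMIs of them. Gm21984 was at least 4.45-fold lower in the GFP negative library. None of these 4 passed without that library.

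Tmem163, a zinc transporter listed with newly formed oligodendrocyte genes, was among the genes at 0 in COPs. It had 15, 9 and 46 UMIs in oligodendrocytes. At 2 weeks it was at least 28.5-fold lower in COPs (edgeR adjusted p = 0.00703), while the other libraries gave no bound. It did not pass without the 2 weeks library. The other 17 tested genes of that list gave no call, and the list median was -0.01. That median depended on the setting: it was 0.72 without TMM, and -0.85 with 3 of 18 genes positive when the GFP negative library was left out. Fyn was at 3002, 3697 and 2223 CPM in COPs and 271, 58.3 and 1261 in oligodendrocytes (log2 fold change 2.41, SE 0.83, edgeR adjusted p = 0.16). Bcas1 was at 2079, 4108 and 2350 CPM in COPs and 391, 345 and 1281 in oligodendrocytes (1.39, SE 0.76, edgeR adjusted p = 0.76). In CPM, every COP level of Fyn and Bcas1 was above the oligodendrocyte level of its library, but by unequal amounts.

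For Enpp6 the order of the 2 classes differed between libraries. It was at 1386 and 1951 CPM in the COPs of the GFP low and GFP negative libraries against 293 and 281 in their oligodendrocytes, and at 1048 in COPs against 1655 in oligodendrocytes at 2 weeks. The summed newly formed list behaved likewise, at 13007 CPM in COPs and 20765 in oligodendrocytes at 2 weeks, and at 16397 and 17971 in COPs against 5584 and 2542 in oligodendrocytes of the GFP low and GFP negative libraries. The oligodendrocytes of the 2 weeks library were 17 cells.

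Receptors of lipid mediators and an orphan receptor were lower in COPs. Lpar1, a receptor of lysophosphatidic acid, had 0, 0 and 2 UMIs in COPs and 107, 438 and 14 in oligodendrocytes (edgeR adjusted p = 0.0035). The ratio at 2 weeks was 13 with a counting interval of 2.99 to 118. S1pr5, a receptor of sphingosine 1-phosphate, and Gpr37, an orphan receptor of the lineage, were at 0 in COPs. At 2 weeks, with 8 and 6 UMIs in oligodendrocytes, they were at least 4.96-fold and 3.72-fold lower. These were 3 of 4 tested purinergic and lysophosphatidic receptors, and none of the 3 passed without the GFP negative library. The receptor not called, Adora1, was also at 0 in COPs. Genes at 0 in COPs entered the test through oligodendrocytes alone and could only be negative. Cholesterol synthesis genes were negative in 19 of 19 with no call (median -1.72). At 2 weeks their sum was 2466 CPM in COPs and 8472 in oligodendrocytes. The 6 tested microglial markers were also all negative (median -2.20, no call). Of 9 tested mitochondrially encoded genes 8 were negative (median -0.96, against -0.53 over all genes, no call). Their sum was 19861, 11296 and 18723 CPM in COPs and 16262, 17268 and 18578 in oligodendrocytes of the GFP low, GFP negative and 2 weeks libraries. Its part in the other differences was not tested.

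The genes higher in COPs than in oligodendrocytes included 2, Rgcc and Vcan, that OPCs also held. Rgcc, which binds cyclin-dependent kinase, was at 924, 616 and 360 CPM in COPs and 22.5, 2.16 and 0 in oligodendrocytes of the GFP low, GFP negative and 2 weeks libraries (log2 fold change 5.35, SE 1.14, edgeR adjusted p = 0.0011). In OPCs Rgcc was at 1282, 1659 and 661 CPM, and COPs and OPCs did not differ past the threshold (-1.07, edgeR adjusted p = 0.79). Vcan was at 1848, 1027 and 1122 CPM in COPs and 52.6, 0 and 433 in oligodendrocytes (3.63, SE 0.93, edgeR adjusted p = 0.0152). Eps8, an actin regulator, and Fxyd6, a modulator of the sodium pump, had log2 fold changes of 5.21 and 4.33.

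3110035E14Rik, which falls outside the rule for named genes and was picked after its values were seen, passed with 0, 15 and 159 UMIs in COPs and 0, 0 and 8 in oligodendrocytes. Neither Rgcc nor Vcan, Eps8 or Fxyd6 passed without the GFP negative library, and Eps8 and Fxyd6 did not pass without the GFP low library. Of 16 tested precursor genes 14 were positive against oligodendrocytes (median 1.54) and Vcan alone was called, or 7 genes without TMM. Ptprz1 (log2 fold change 2.62, edgeR adjusted p = 0.15) and Cacng4 (3.55, edgeR adjusted p = 0.11) did not pass. Sox6, a transcription factor of the precursor state, had 3.46 (edgeR adjusted p = 0.088), and none of 17 tested lineage transcription factors was called (median -0.18, or -0.11 with the bound). No gene was higher in COPs past the threshold in both comparisons.

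**Figure D5:**
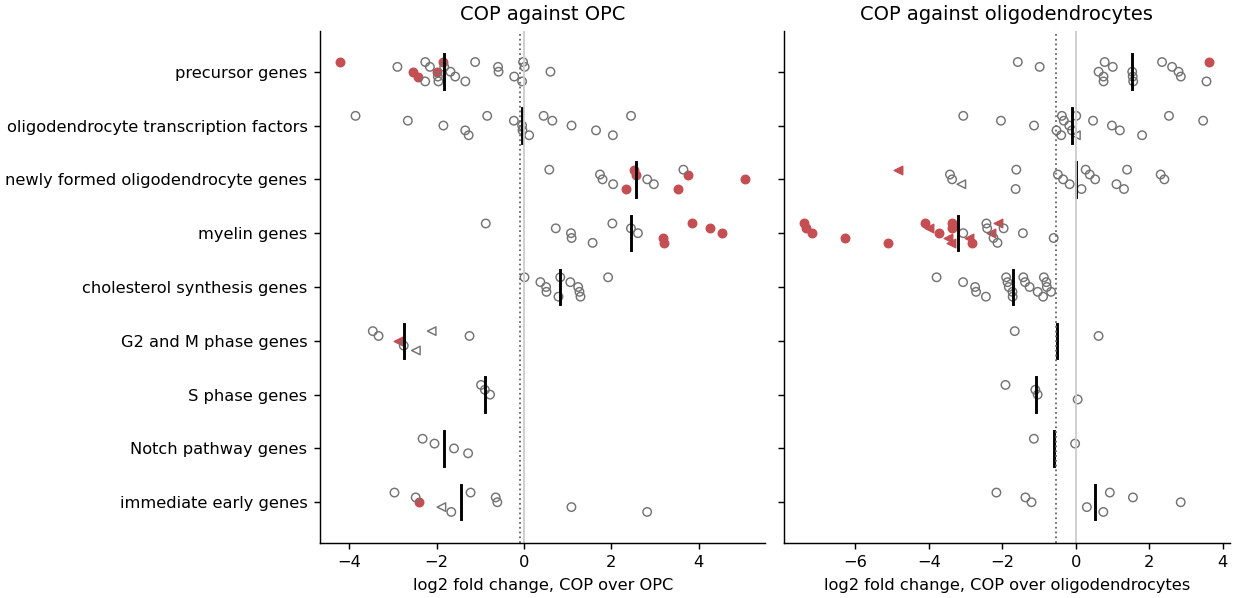
Log2 fold change of each tested gene of 9 lists in COPs against OPCs (left) and against oligodendrocytes (right). Filled red marks passed edgeR's test, and triangles are the highest bound over the libraries for genes at 0 in 1 class. Thick bars are list medians and the dotted line is the median of all tested genes. Myelin genes lie to the right on the left panel (median 2.45) and to the left on the right panel (median -3.22 with bounds).

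Summed over the lists, COPs stood between their neighbours for myelin genes, at 18938, 33580 and 16934 CPM in the GFP low, GFP negative and 2 weeks libraries. At 2 weeks OPCs were at 2028 and oligodendrocytes at 98684. The classes were chosen in part by Mog, Mal and Mag, so this order is not independent of the rule. The 2 COPs at 2 months had 51256 CPM of myelin genes (45158–57949) and the 2 at 6 months 36381 (31354–41986), against 14085 (10107–19107) for the 2 of the unsorted viable library, a range that 2 cells per library cannot tie to age. Precursor genes were at 20554, 6367 and 8022 CPM in COPs of the 3 fitted libraries, and at 2 weeks at 19552 in OPCs and 5004 in oligodendrocytes.

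The genes on which these results turn lie on different chromosomes. In the GRCm38 build, Enpp6 lies on chromosome 8 (46986887 to 47096762), Fyn on 10 (39368855 to 39565381) and Cspg5 on 9 (110243783 to 110262576). Top2a lies on 11 (98992943 to 99024189) and Rgcc on 14 (79288756 to 79301645). All are annotated as protein coding.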

How the data were processed

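Per the labels, SVZ cells were profiled by Drop-seq. The authors deposited 1 table of raw UMI counts per library, with no normalization. The submitters' processing notes name the builds mm10 and GRCm38; no aligner, counting program or barcode filter is named there. Gene symbols that a spreadsheet had turned into dates in the age series (19 to 21 per file) were mapped back. Sort and age files split reads of some genes with processed copies differently (Rpl17 at 10.7 to 27.3 CPM against 372 to 762), so levels of such genes were not compared across experiments.

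The COPs and the gene lists were chosen with earlier results of these data known. Barcodes under 400 UMIs (1917) were left out. Scrublet in scanpy 1.11.5 (expected share 5%) called doublets, which were kept in the main results and left out in an alternative. Counts summed per library and class (genes with at least 20 UMIs) were tested with edgeR 4.0.16 (quasi-likelihood, TMM, library block, Benjamini-Hochberg) in R 4.3.3. At least 5 cells per class were required, or 3 with fewer than 4 libraries, and both gave the same 3 libraries. DESeq2 1.42.0, other scalings, filters, depths and left-out libraries were alternatives. The fits were tested on simulated counts. Named were the 10 largest changes in each direction among genes past the threshold with the same sign in every library, and members of the lists. Rule genes and edge cases were described only. Intervals are exact, at 95%, except those of the thinned cell cycle shares, and cover counting error only. Position data are from GENCODE for GRCm38. Python 3.11.15 and scipy 1.17.1 were used. Some genes in the counts and list medians are not reported here by name.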

Additional observations from a re-analysis of the deposited data

How the results depend on the processing

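Of 57 results for single genes under up to 11 alternatives (610 values), 479 kept direction and side of the threshold, 131 kept the direction only and 0 reversed. The genes were chosen as past the threshold, most of them with the same sign in every library. The alternatives reuse the same counts, so this choice itself made reversals unlikely. The settings with the most losses were leaving out the GFP negative library (33) and no filter on low counts (28). The cause was not tested.

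Genes higher in COPs than in OPCs (20) numbered 34 without TMM, 9 with no filter and 10 without the library as a replicate block, and 6 to 35 with 1 library left out. Genes lower (13) numbered 30 with at least 50 UMIs per gene, 4 with no filter, 6 with at least 1000 UMIs per cell, and 2 to 22 with 1 library left out.

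Against oligodendrocytes, genes higher (5) numbered 13 with DESeq2, 45 without TMM, 2 with at least 10 UMIs per gene, 13 with at least 50, 0 with no filter (504 genes at an unadjusted p under 0.05), 31 without the library as a block, 10 without called doublets, and 0 to 5 with 1 library left out. Genes lower (61) numbered 38 with at least 10 UMIs, 100 with at least 50, 23 with no filter, 218 without the block, and 16 to 61 with 1 library left out.

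The COP share of GFP negative cells became 1.90% with at least 1000 UMIs per cell and 1.63% at 800 UMIs per cell. COPs at 800 UMIs were 57.1% of 7 GFP low precursors and 100% of 3 at 2 months. The cell cycle share of COPs was 30.5% with at least 1 UMI and 29.6% without thinning. CGD1 was 0 in the 37 COPs with at least 1000 UMIs. The shares without the 2 weeks library were added after seeing the data. A minimum of 10 cells left 1 library and could not be fitted. No paired analysis was possible across gates or ages because each group is 1 library; the block pairs classes within a library. Depth limits every value outside 2 weeks, where 18 COPs hold all counts.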
